A study of Mus musculus with 8 samples.

Results

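The olfactory signal transduction cascade is the set of proteins that turns odorant binding into a receptor current in the cilia of olfactory sensory neurons (OSNs). Its members here are the array rows that carry a single gene symbol among Gnal, Gng13, Adcy3, Cnga2, Cnga4, Cngb1, Ano2, Pde1c and Slc24a4. All 9 genes were measured, by 12 of the 23410 rows with a gene symbol. Cngb1 has 4 rows and every other member has 1. The samples are olfactory mucosa of mice at postnatal day 1 on a mixed 129 x C57BL/6J background, each hybridised to 1 Affymetrix Mouse Gene ST array. The 4 knockouts are 123Cre:Emx2(fl/fl), in which Cre can remove both alleles of the homeodomain factor Emx2. The 4 controls are littermates that can lose 1 allele at most, and they comprise 2 samples of 123Cre:Emx2(fl/+) and 2 of Emx2(fl/fl) without Cre. The 123Cre transgene starts to express Cre in immature OSNs and recombines in only some of them, so OSNs that keep Emx2 contribute to the knockout samples. The comparison asks whether mRNAs of the transduction machinery, which every canonical OSN uses whatever receptor it expresses, differ when Emx2 is deleted in OSNs.

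In these neurons an activated odorant receptor releases the G protein Golf, whose alpha subunit is encoded by Gnal and one of whose gamma subunits is Gng13. Golf activates the adenylyl cyclase Adcy3, and the cAMP it makes opens a cyclic nucleotide-gated (CNG) channel built from Cnga2, Cnga4 and Cngb1. Calcium entering through that channel opens the chloride channel Ano2, which amplifies the current, while the calcium-dependent phosphodiesterase Pde1c degrades cAMP and the exchanger Slc24a4 removes calcium.

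Emx2 itself measured 10.80, 10.86, 11.00 and 10.72 in controls 1 to 4 and 9.80, 9.86, 10.01 and 9.93 in knockouts 1 to 4, on the deposited log2 scale. Emx2 fell by 0.94 (adjusted p = 0.0014, limma), and the groups did not overlap. Omp, the classic marker of mature OSNs, lay between 12.80 and 13.07 in all samples. The homeodomain factor Lhx2 differed by 0.00 between groups and Gap43, a marker of immature OSNs, by -0.23 (adjusted p = 0.564, limma). Knockout 2 stood apart, with a mean correlation of 0.979 with the other arrays, the lowest of the 8, and the lowest array weight, 0.17. Because whole mucosa was measured, fewer OSNs and less mRNA per OSN cannot be told apart in any value below.

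The promoter windows of the 4 channel genes described most fully below are shown because every knockout was below every control for Ano2, for Cnga2 and in 1 of the 4 rows of Cngb1, while Cnga4 had the opposite sign. Each window runs from 250 bases before to 50 bases after the RefSeq transcript start (assembly GRCm38.p6), is written 5′ to 3′ on the strand of the gene, and has in capitals the match to CCCNNGGG, the core bound by the Olf/Ebf (O/E) factors of OSNs. Where a gene has several windows, the one with a match is given.
Ano2, chr6:125710938-125711237, plus strand, match starting at -67: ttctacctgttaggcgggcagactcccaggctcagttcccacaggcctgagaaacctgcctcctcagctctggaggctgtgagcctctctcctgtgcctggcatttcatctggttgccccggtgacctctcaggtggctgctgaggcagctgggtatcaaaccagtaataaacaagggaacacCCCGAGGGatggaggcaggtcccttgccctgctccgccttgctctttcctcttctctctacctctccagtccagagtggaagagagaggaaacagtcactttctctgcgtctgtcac
Cngb1, chr8:95306536-95306835, minus strand, match starting at -129: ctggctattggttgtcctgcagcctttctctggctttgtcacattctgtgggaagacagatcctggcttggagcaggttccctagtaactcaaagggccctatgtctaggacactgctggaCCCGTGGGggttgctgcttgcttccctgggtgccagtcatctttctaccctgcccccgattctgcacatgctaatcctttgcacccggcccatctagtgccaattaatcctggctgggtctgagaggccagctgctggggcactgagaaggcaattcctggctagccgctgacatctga
Cnga2, chrX:71991599-71991898, plus strand, match starting at -66: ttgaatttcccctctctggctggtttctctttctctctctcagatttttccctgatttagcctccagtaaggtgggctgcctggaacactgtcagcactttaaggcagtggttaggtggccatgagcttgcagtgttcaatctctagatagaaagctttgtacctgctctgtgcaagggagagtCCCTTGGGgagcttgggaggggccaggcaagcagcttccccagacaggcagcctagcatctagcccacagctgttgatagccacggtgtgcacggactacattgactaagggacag
Cnga4, chr7:105404318-105404617, plus strand, match starting at 25: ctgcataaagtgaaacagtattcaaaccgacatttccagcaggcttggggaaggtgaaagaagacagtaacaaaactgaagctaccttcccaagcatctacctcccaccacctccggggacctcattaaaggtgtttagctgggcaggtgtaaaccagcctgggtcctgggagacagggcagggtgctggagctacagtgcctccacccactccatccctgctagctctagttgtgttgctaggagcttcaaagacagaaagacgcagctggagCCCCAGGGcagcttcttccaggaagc

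The RefSeq windows used numbered 14, for 8 of the 9 members. The selection left out member windows on 1 chromosome, and no window of Gnal is among the 14. The share over all windows below keeps that chromosome. CCCNNGGG, which reads the same on both strands, was found in 6 of the 14 windows and in at least 1 window of 6 of the 8 genes: Gng13, Slc24a4 and the 4 channel genes printed. Of all 32851 promoter windows of this length, 13.7% hold it. That share counts single windows, so it is no background for the count of genes, some of which have several windows. The other Ano2 windows, which start at 125690169 and 125690369, held no match. The homeodomain core TAATTA, also its own reverse complement and free of overlap with CCCNNGGG, was found in 0 of the 14 windows and in 5.29% of all windows. Such a match describes letters in a window. It does not show that a factor binds there, and a window without one says nothing of the factor.

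None of the 12 cascade rows passed an adjusted p under 0.05, a threshold passed by 84 rows or 0.359% of those tested. At an unadjusted p under 0.05 there were 3 cascade rows (Ano2, Cngb1 row 10580829 and Cnga4), against 6.10% of all rows. The row of lowest p was Ano2, which ranked 111 among all rows and was the only member lower at an unadjusted p under 0.01, against 1.30% of all rows. The methods' t-test, run here on the deposited values without the study's normalization to mature OSN mRNAs, put 1 cascade row, Ano2, at an unadjusted p under 0.01 and 0 after Benjamini-Hochberg adjustment, against 467 and 28 rows of the whole table. In 3 rows, those of Ano2, Cnga2 and 1 of the 4 for Cngb1, every knockout lay below every control, as in 2.54% of all rows. The opposite order occurred in 0 cascade rows and in 1.98% of all rows. Differences were above 0 in 6 cascade rows, 3 of them rows of Cngb1, and below 0 in the other 6. With 1 row per gene, the brightest, 3 of the 9 members were above 0 and 6 below.

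**Figure D1:**
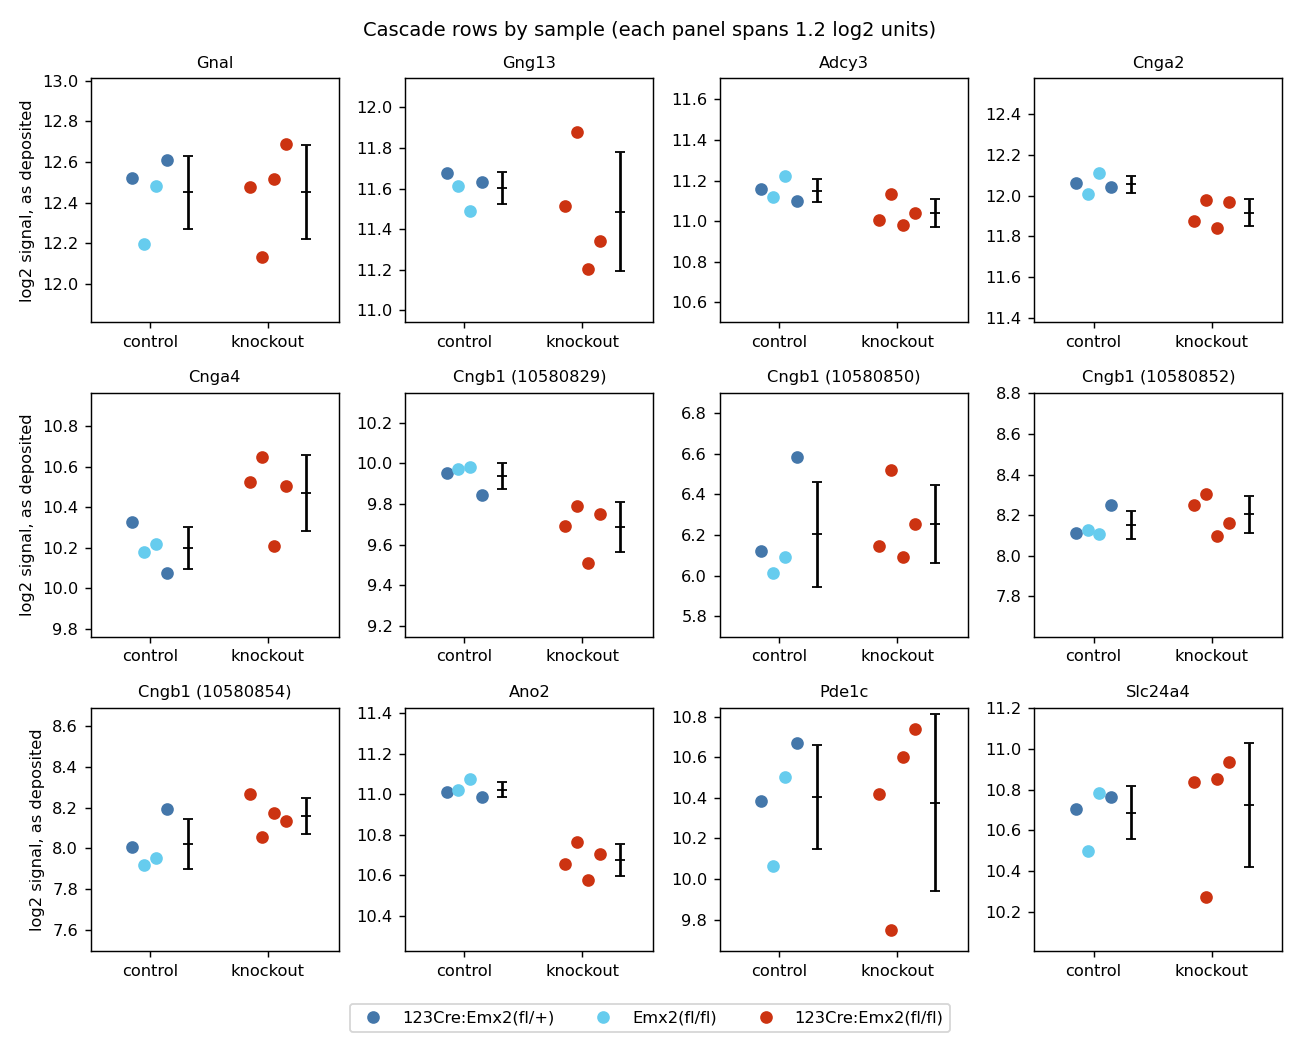
Deposited log2 signal (vertical axis, the same span in every panel) of each of the 12 cascade rows in the 4 controls and 4 knockouts. Each point is a sample, its colour gives the genotype, and bars give the group mean and SD. Knockouts lie below controls without overlap for Ano2, Cnga2 and Cngb1 row 10580829, and the groups overlap for Gnal, Pde1c and Slc24a4.

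The chloride channel Ano2 showed the clearest separation. Its log2 signal was 11.01, 11.02, 11.07 and 10.98 in controls 1 to 4 and 10.65, 10.76, 10.58 and 10.71 in knockouts 1 to 4. The highest knockout was thus below the lowest control, and the controls of both genotypes lay close together, with means of 11.00 for 123Cre:Emx2(fl/+) and 11.05 for Emx2(fl/fl). The group means were 11.02 ± 0.037 and 10.68 ± 0.079 (SD, n = 4 each). Ano2 differed by -0.35 (SE 0.066, 95% interval -0.50 to -0.20), which is -21.4% on the linear scale, with an unadjusted p of 0.000549 and an adjusted p of 0.116 by limma. With a weight for each array it passed, at an adjusted p of 0.0147 (limma). That setting called 224 rows of the whole table, against 84 without weights. With samples centred on mature OSN markers the Ano2 difference was -0.13 (unadjusted p = 0.119, adjusted p = 0.215, limma). Over the 20 alternative settings the adjusted p of Ano2 ranged from 0.0147 to 0.998. The difference was -0.31 within arrays 1 to 4 and -0.39 within arrays 5 to 8, as numbered in the sample titles, each of which hold 2 controls and 2 knockouts.

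The CNG channel takes its cyclic nucleotide sensitivity and gating from 3 subunits. Cngb1, the subunit needed for delivery of the channel to cilia, measured 9.95, 9.97, 9.98 and 9.85 in the controls and 9.69, 9.79, 9.51 and 9.75 in the knockouts in its brightest row (10580829). The groups did not overlap. This row averaged 9.94 ± 0.064 in controls and 9.69 ± 0.12 in knockouts (SD, n = 4 each), and differed by -0.25 (SE 0.080, 95% interval -0.43 to -0.07, adjusted p = 0.618). Its difference was -0.22 within arrays 1 to 4 and -0.28 within arrays 5 to 8.

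The other 3 Cngb1 rows did not show that order. Rows 10580850, 10580852 and 10580854 differed by 0.05, 0.05 and 0.14, each with overlapping groups and with intervals that include 0. Row 10580850, at 6.01 to 6.59 over all samples, was among the dimmest 30% of rows. The files do not say which exons or transcripts each row covers, so the gene's rows disagree here and the lower signal belongs to row 10580829 alone.

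Cnga2, the principal subunit that forms the pore, measured 12.06, 12.01, 12.11 and 12.04 in controls and 11.87, 11.98, 11.84 and 11.97 in knockouts. The groups did not overlap, and knockout 2 came closest to the controls. Cnga2 averaged 12.06 ± 0.043 against 11.92 ± 0.068 (SD, n = 4 each) and differed by -0.14 (SE 0.064, 95% interval -0.29 to 0.01, adjusted p = 0.834).

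Cnga4, a modulatory subunit that speeds calmodulin-dependent closing of the channel, had the opposite sign. It measured 10.33, 10.18, 10.22 and 10.08 in controls and 10.52, 10.65, 10.21 and 10.51 in knockouts. Knockouts 1, 2 and 4 were above every control and knockout 3 was not, so the groups overlapped. Cnga4 averaged 10.20 ± 0.10 against 10.47 ± 0.19 (SD, n = 4 each) and differed by 0.27 (SE 0.10, 95% interval 0.03 to 0.50), which is 20.5% on the linear scale, with an unadjusted p of 0.0296 and an adjusted p of 0.771. Within arrays 1 to 4 the difference was 0.33 and within arrays 5 to 8 it was 0.21. With 1 sample left out it ran from 0.21 without knockout 2 (unadjusted p = 0.0657, limma) to 0.36 without knockout 3 (unadjusted p = 0.00323, limma), and the unadjusted p was above 0.05 unless the sample left out was knockout 3 or control 1.

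The channel genes were also set against each other within each sample, which removes any difference in overall signal between arrays. The log2 signal of Cnga4 minus that of Cngb1 row 10580829 ran from 0.21 to 0.37 in controls and from 0.70 to 0.85 in knockouts, a shift of 0.52 that was 0.55 within arrays 1 to 4 and 0.49 within arrays 5 to 8. Ano2 minus Cnga2 ran from -1.06 to -0.99 in controls and from -1.26 to -1.21 in knockouts, a shift of -0.21. The groups did not overlap in either contrast. Cnga4 minus Cnga2, with a shift of 0.41, did not overlap either. Cngb1 row 10580829 minus Cnga2 and Pde1c minus Gng13, with shifts of -0.11 and 0.09, did overlap. None of these pairs was planned, and the Cnga4 minus Cngb1 and Ano2 minus Cnga2 pairs were chosen after their values were seen. Pairs that set Cnga4 against a gene with a lower knockout mean were bound to shift upward. All these shifts are descriptions without a test, and since probes differ in brightness their sign says nothing of which mRNA is more abundant.

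**Figure D2:**
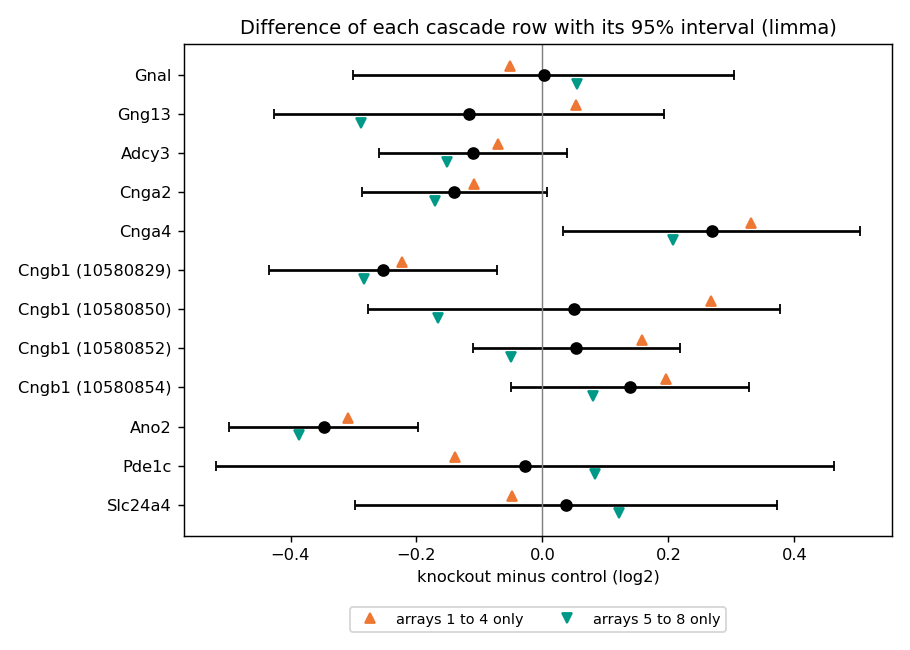
Knockout minus control difference (log2, horizontal axis) of each of the 12 cascade rows, with a black point and 95% interval from limma over 8 samples and triangles for the difference within arrays 1 to 4 and within arrays 5 to 8. The intervals of Ano2, Cngb1 row 10580829 and Cnga4 exclude 0, and their triangles lie on the same side of 0.

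The first steps of the cascade showed small differences. Gnal measured 12.52, 12.19, 12.48 and 12.61 in controls and 12.48, 12.13, 12.51 and 12.69 in knockouts. Its difference was 0.00 (SE 0.13), its 95% interval ran from -0.30 to 0.30, and control 2 and knockout 2 were the lowest samples of their groups. The gamma subunit Gng13 measured 11.68, 11.61, 11.49 and 11.63 in controls and 11.52, 11.88, 11.20 and 11.34 in knockouts. Knockout 2 was the highest and knockout 3 the lowest of all 8 samples, and the difference of -0.12 (SE 0.14, adjusted p = 1.0) lay within that spread. It was 0.05 within arrays 1 to 4 and -0.29 within arrays 5 to 8. The cyclase Adcy3 measured 11.16, 11.12, 11.22 and 11.10 in controls and 11.01, 11.14, 10.98 and 11.04 in knockouts. Knockouts 1, 3 and 4 were below every control, knockout 2 was not, and the difference was -0.11 (SE 0.066, 95% interval -0.26 to 0.04, adjusted p = 0.919).

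The genes that end the response had the largest standard errors of all 12 cascade rows. Pde1c measured 10.38, 10.06, 10.50 and 10.67 in controls and 10.42, 9.75, 10.60 and 10.74 in knockouts. Slc24a4 measured 10.70, 10.50, 10.78 and 10.77 in controls and 10.84, 10.27, 10.85 and 10.94 in knockouts. In both genes knockout 2 was the lowest sample and control 2 the next lowest. Pde1c differed by -0.03 (SE 0.22, 95% interval -0.52 to 0.46) and Slc24a4 by 0.04 (SE 0.15, 95% interval -0.30 to 0.37), so a difference as large as that of Ano2 lies inside the interval of Pde1c. Averaged over 1 row per gene, the 9 members were at 11.06 ± 0.063 in controls and 10.98 ± 0.072 in knockouts (SD, n = 4 each), with overlapping ranges of 10.96 to 11.10 and 10.92 to 11.08.

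The members followed different courses over the arrays. Ano2, Cngb1 (row 10580829 throughout this paragraph), Cnga2 and Adcy3 varied together. Pearson r to Ano2 was 0.94 for Cngb1, 0.93 for Cnga2 and 0.87 for Adcy3. Gnal, Pde1c and Slc24a4 formed another group, with r between 0.92 and 0.96, all lowest in knockout 2 and control 2, which are arrays 3 and 4. Gng13 was highest in array 3, and its r to Pde1c was -0.75. These correlations are over the 8 samples, which share the group difference and the array order, and are given as descriptions. The r of Cnga4 was -0.52 to Ano2 and -0.24 to Cngb1 over all samples, but 0.82 and 0.91 once each group's mean was subtracted, so the negative values come from the difference between the groups. The r to Ano2 of Cngb1, Cnga2 and Adcy3 was 0.93, 0.89 and 0.90 after the same subtraction.

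Array order was therefore set beside genotype. With genotype in the same limma fit, Pde1c was higher by 0.47 (SE 0.15) in arrays 5 to 8 than in arrays 1 to 4, with an unadjusted p of 0.0113 and an adjusted p of 0.0937. Gng13 was lower in the later arrays, with a difference of -0.25 (SE 0.11, unadjusted p = 0.0457 in the limma fit). These were the 2 of 12 cascade rows at an unadjusted p under 0.05 in this comparison, against 30.4% of all rows. Gnal and Slc24a4 differed by 0.24 and 0.26 between the array sets, with unadjusted p of 0.0507 and 0.0641 in the same limma fit. The later arrays differed by -0.03 for Ano2, -0.02 for Adcy3, 0.01 for Cnga2 and -0.08 for Cngb1 row 10580829. At an adjusted p under 0.05, 0 of 12 cascade rows passed, and 0% of all rows did. The labels do not say that the array numbers mark a batch.

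**Figure D3:**
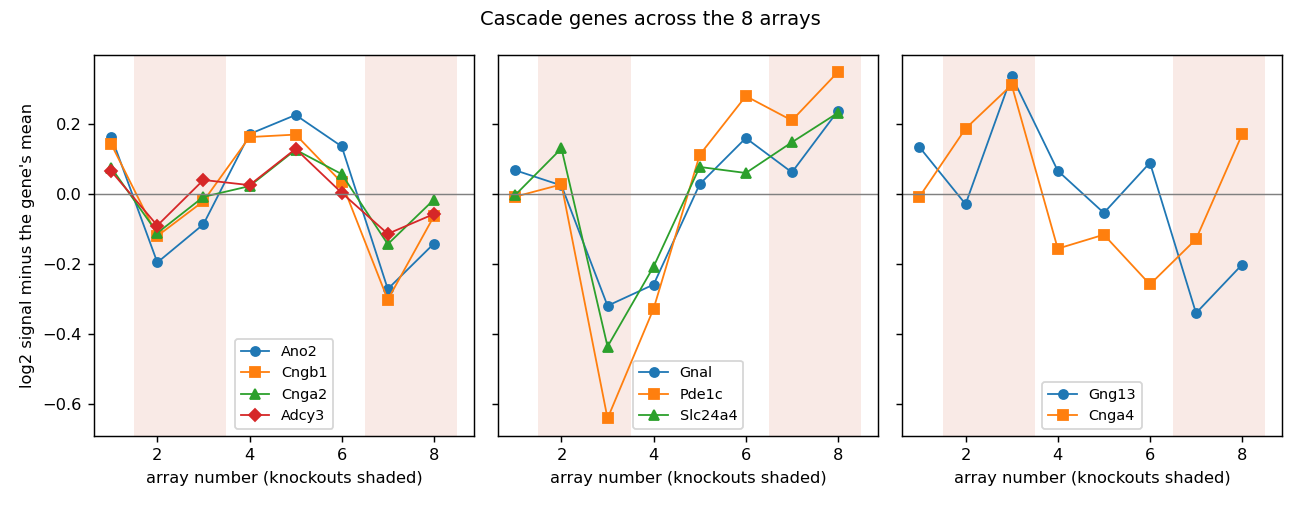
Log2 signal of each cascade gene minus its own mean over the 8 samples (vertical axis) by array number (horizontal axis), with arrays of knockout samples shaded and Cngb1 given by row 10580829. Ano2, Cngb1 and Cnga2 are lower in every shaded array than in any other, Adcy3 is so in the shaded arrays except array 3, Gnal, Pde1c and Slc24a4 are lowest in arrays 3 and 4, and Gng13 and Cnga4 are highest in array 3.

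Proteins that work beside the cascade were taken from a list of 22 genes, 20 of them measured. Of the 20, 15 were below 0, as were 11333 of all 23410 rows. An adjusted p under 0.05 was passed by 0 of the 20 and by 0.359% of all rows. Their median difference was -0.06, against 0.00 for all rows and -0.11 for the 9 members. The plasma membrane calcium pump Atp2b2 was the lowest and the only 1 of the 20 at an unadjusted p under 0.05, against 6.10% of all rows. It measured 8.26, 8.87, 8.37 and 8.43 in controls and 8.01, 8.21, 7.95 and 7.90 in knockouts. Its difference was -0.46 (SE 0.14, unadjusted p = 0.00775, adjusted p = 0.508 by limma). Every knockout lay below every control, as in 2.54% of all rows. The calmodulin gene Calm2 differed by -0.17 and the kinase subunit gene Camk2a by -0.16. The partners furthest above 0 were Best2, Gucy2d and Slc12a2, the chloride importer that loads OSNs, at 0.08, 0.05 and 0.04.

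Genes that build cilia and carry cargo into them had a median difference near 0, with single genes further off. Of 20 listed, 17 were measured, and 0 were at an unadjusted p under 0.05, against 6.10% of all rows. Their median difference was -0.03. The furthest were Bbs4, a subunit of the BBSome, at -0.24 and Cep290, a protein of the ciliary transition zone, at 0.13. Arl3 and Kif3a both differed by -0.15, and Bbs7 and Bbs2 by 0.06 and 0.03.

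Relatives of the members, most of them used by other cells, had a median difference of 0.02 over 52 measured genes of 54 listed. None passed an adjusted p under 0.05, as 0.359% of all rows did. At an unadjusted p under 0.05 there were 2 above 0 and 3 below, against 6.10% of all rows in either direction. The relatives furthest below were the gamma subunits Gng3 and Gng2, at -0.55 and -0.30, and the exchanger Slc24a2, at -0.26. Those furthest above were the transducin-family genes Gnat3 and Gngt2, at 0.35 and 0.30, and Gna14, at 0.21. Gnat3 measured only 4.30 to 5.28 over all samples, below the dim Cngb1 row 10580850, and its highest value was in knockout 1.

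Markers of the cell types in the mucosa were summarised in the same way. The 9 mature OSN markers measured, of 10 listed and with no cascade member among them, were all below 0. Their mean was 12.13 to 12.27 in controls and 11.93 to 12.05 in knockouts, without overlap, a difference of -0.22 in the means and a median of -0.14 over the genes. S100a5, an EF-hand calcium-binding protein, differed by -0.52, the receptor trafficking protein Rtp2 by -0.40 and the glutamate transporter Slc17a6 by -0.32, and 0 of the 9 passed an adjusted p under 0.05. Ric8b, Omp and Stoml3, which are also among the partners, differed less, by -0.11, -0.06 and -0.08. The fall was thus uneven, and the marker mean rests more on the genes furthest below 0.

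Relative to that marker mean, the members differed by 0.14, from -1.18 to -1.11 in controls and -1.07 to -0.98 in knockouts. Taken the same way, Ano2 differed by -0.13, Cngb1 row 10580829 by -0.04, Cnga2 by 0.08 and Cnga4 by 0.48. Ano2 relative to the markers ran from -1.24 to -1.11 in controls and from -1.35 to -1.23 in knockouts, which overlap. Cnga4 ran from -2.15 to -1.87 in controls and from -1.72 to -1.35 in knockouts, without overlap. Its unadjusted p after this centring was 0.0010 and its adjusted p 0.0605 (limma). Cngb1 row 10580854 then differed by 0.35, with an unadjusted p of 0.0041 and an adjusted p of 0.062 (limma). This centring moved the median of all rows to 0.22. For conditional Emx2 deletion, the study reported no effect on how many mature or immature OSNs there were. Its normalization used a larger set of mature OSN mRNAs than the markers here. The part that the amount of mature OSN mRNA has in the lower signal of Ano2, Cngb1 row 10580829 and Cnga2 was not tested.

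Of 10 immature OSN markers, 9 were below 0, with a median of -0.15 and a mean level of 10.93 to 11.11 in controls and 10.85 to 10.91 in knockouts, without overlap. Nhlh2, Trib3 and Crmp1 were the lowest, at -0.35, -0.25 and -0.24, and Gng8 was the only one above 0, at 0.12. All 8 markers of respiratory ciliated cells were above 0, with a median of 0.25 and a mean level of 10.08 to 10.26 in controls and 10.16 to 10.57 in knockouts, which overlap. Tmem212, Dnah9 and Dynlrb2 led these, at 0.36, 0.32 and 0.31. The 5 sustentacular markers measured had a median of 0.00, with Krt8 lowest at -0.15 and Krt18 highest at 0.08. The 6 vomeronasal markers measured of 7 had a median of -0.12, led by Tfap2e at -0.24, the 6 brain markers one of -0.27, led by Slc17a7 at -0.41, and the 6 skeletal muscle markers one of 0.10, led by Actn3 at 0.34. The mean levels of these last 4 lists overlapped between the groups. None of these genes passed an adjusted p under 0.05, and their part in the cascade's values was not tested.

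**Figure D4:**
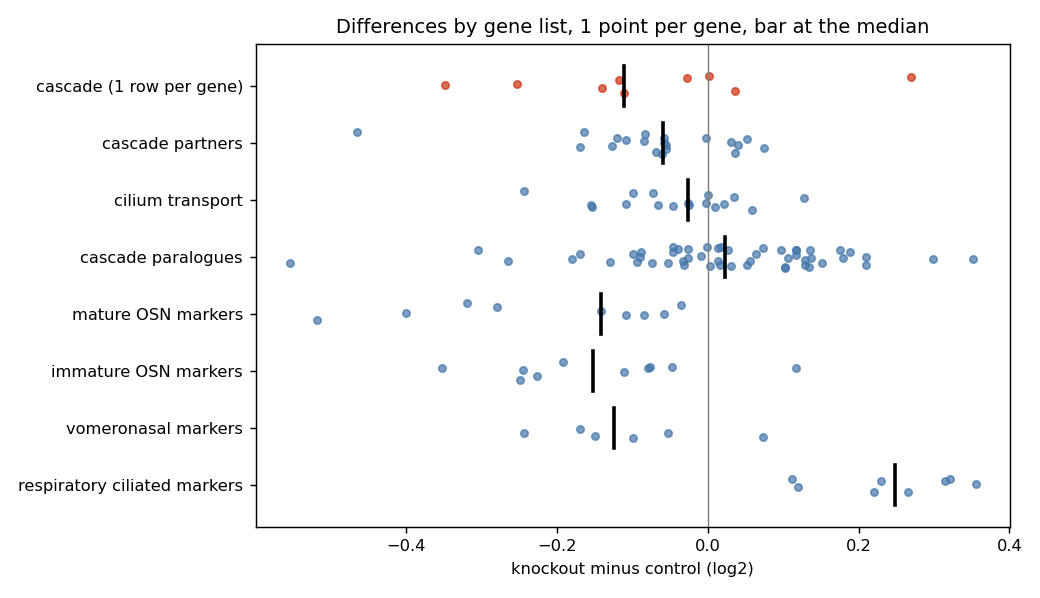
Knockout minus control difference (log2, horizontal axis) of each measured gene, 1 point per gene, in the cascade, in 3 lists of related genes and in 4 lists of cell type markers, with a bar at the median of each list. The cascade has its median at -0.11, mature OSN markers at -0.14 and respiratory ciliated markers at 0.25.

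The genes whose signal followed Ano2 most closely over the 8 samples, among 21777 rows with 1 symbol outside the cascade, were the odorant receptor Olfr283 (Pearson r = 0.99), Tspyl4 (0.99), Rtp2 (0.98), the cadherin Cdh18 (0.98) and the odorant receptor Olfr111 (0.97). Their knockout minus control differences were -0.31, -0.25, -0.40, -0.47 and -0.58, and 107 rows had an r over 0.9. The mean of the 9 standardized members had 11 such rows, and was followed most closely by the trace amine receptor Taar9 (0.96), Ttc27 (0.94), Atpaf1 (0.93) and the odorant receptors Olfr248 (0.93) and Olfr600 (0.93). These 5 genes differed by -0.36, -0.27, -0.10, -0.24 and -0.34. All the samples share the genotype difference, and these likenesses are descriptions.

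The direction of the Ano2, Cngb1 row 10580829 and Cnga4 differences held under all 20 alternative settings, from -0.38 to -0.13, from -0.29 to -0.04 and from 0.21 to 0.48. That of Cnga2 ran from -0.16 to 0.08 and turned positive only with mature OSN centring. Knockout 2, the array that stood apart, lowered rather than raised the size of the Ano2 difference, which was -0.38 without it (adjusted p = 0.0526, limma).

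**Figure D5:**
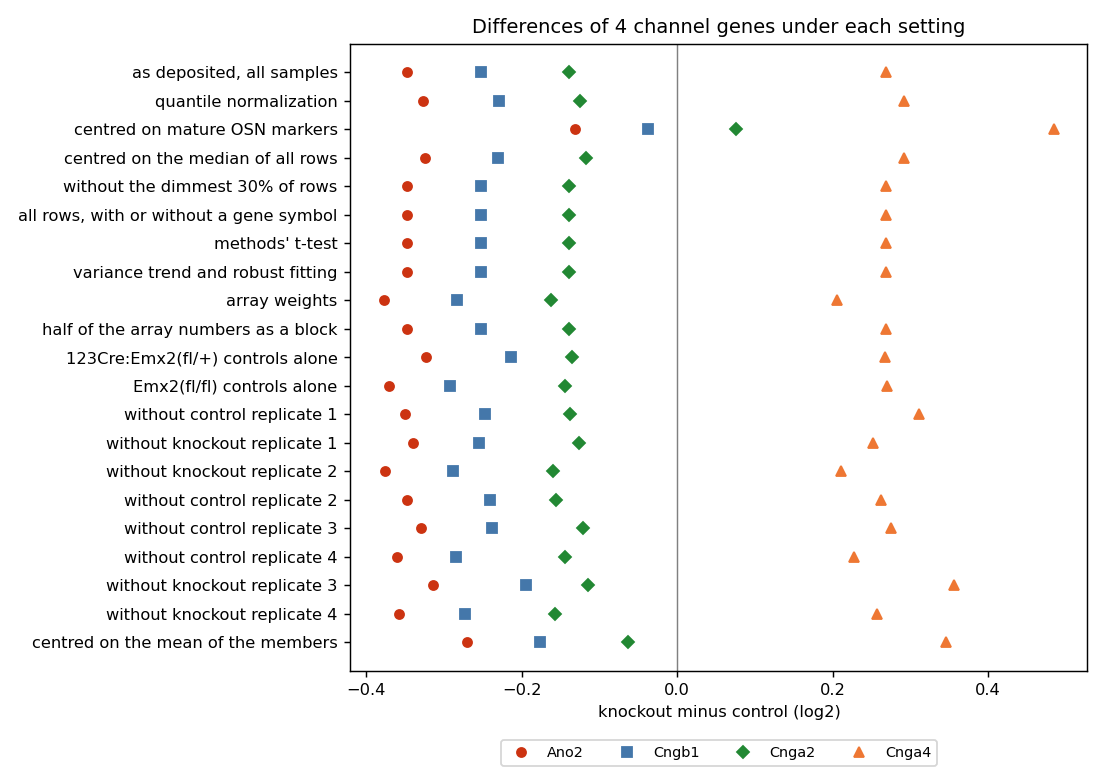
Knockout minus control difference (log2, horizontal axis) of Ano2, Cngb1 row 10580829, Cnga2 and Cnga4 in the samples as deposited and under each of 20 alternative settings (vertical axis). Ano2 and Cngb1 stay below 0 and Cnga4 above 0 in each, and Cnga2 crosses 0 when samples are centred on mature OSN markers.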

How the data were processed

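Total RNA of P1 olfactory mucosa was labelled with biotin and hybridised to 1 array per sample. The authors deposited log2 values per transcript cluster in 35557 rows. Affymetrix Expression Console is named in the submitters' processing notes, and for its version, background correction, normalization and genome build nothing is given in the sources used. The values were used as deposited, with the number of arrays limiting the precision, and gene symbols were taken from the platform annotation.

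All 23410 rows with a gene symbol were fitted with limma 3.58.1 (lmFit and eBayes) in R 4.3.3, knockout against control, two-sided, with no covariate. Benjamini-Hochberg adjustment covered all of these rows, and an adjusted p under 0.05 was a call. The fit was tested on simulated data. The simulated noise was independent and the shifts exceeded every cascade difference, so that test does not cover array order or differences this small. Labels give no litter, culture or batch, so a p-value reflects only the spread among these samples, which may be technical. Lists use 1 row per gene, the brightest on average, and receive no test.

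The members and the gene lists were chosen with earlier results of these data known. The text names all members, Emx2, Lhx2, Omp and Gap43, up to 3 genes in each direction of each list, and the 5 rows most like the member mean and most like the member of lowest p. Alternatives were quantile normalization, centring on mature OSN markers or on the median of all rows, filters, the methods' t-test, variance trend with robust fitting, array weights, arrays 1 to 4 or 5 to 8 as a term, either control genotype alone and each sample left out. Centring on the mean of the members was added after the data had been seen. Promoter windows come from RefSeq. A comparison of the channel proteins was not made.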

Additional observations from a re-analysis of the deposited data

Results flagged for a closer look

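In each of the 24 sets of 4 values (12 cascade rows, 2 groups), the gap of the highest or lowest sample to its nearest neighbour was set against the range of the group, and gaps above Dixon's critical value for 4 samples were noted. Chance gives about 1 in 20 such sets. For Slc24a4, knockout 2 measured 10.27, with the other knockouts between 10.84 and 10.94 and a gap of 0.848 of the range. Knockout 2 is also the array with the lowest weight. For Cngb1 row 10580852, control 4 measured 8.25, with the other controls between 8.11 and 8.13 and a gap of 0.882 of the range.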

How the results depend on the processing

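Each of the 12 cascade rows was recomputed under up to 20 alternatives, 239 values in all. Of these, 214 kept their direction and side of the threshold, 1 passed it (Ano2 with array weights) and 24 changed sign. No member passed an adjusted p under 0.05 in the analysis as reported, when 84 rows of the whole table did. With array weights 1 member passed, when 224 rows of the whole table did. Members lower at an unadjusted p under 0.01 numbered 1 as reported, 2 with array weights, 2 with the array set as a term, 0 after mature OSN centring and 0 against 123Cre:Emx2(fl/+) controls alone, and 1 to 2 when a sample was left out (2 without knockout 2, Ano2 and Cngb1). Of all rows, 1.30% were lower at that p as reported, and the share is not given for the alternatives. The member mean differed by 0.14 after mature OSN centring. In the comparison of array sets, 1 member (Pde1c) passed with array weights. Signs changed for Gng13 (0.10), Adcy3 (0.11) and Cnga2 (0.076) after mature OSN centring, for Gnal against 123Cre:Emx2(fl/+) controls alone (-0.11), and for Slc24a4 against the same controls (-0.010). Pde1c gave 0.19 after mature OSN centring, 0.15 with array weights, 0.094 against Emx2(fl/fl) controls alone and 0.049 after centring on the member mean. Cngb1 row 10580850 gave -0.0018 after quantile normalization and -0.10 against 123Cre:Emx2(fl/+) controls alone. Leaving out 1 sample moved Gnal from -0.084 to 0.11, Pde1c from -0.15 to 0.18, Slc24a4 from -0.034 to 0.19 and Cngb1 row 10580850 from -0.039 to 0.18. The cause was not tested. Over all rows, calls numbered 84 as reported and 25 to 224 over the alternatives, the most with array weights. Signal over background is unknown, since only summarised values were used. No paired analysis was possible because the labels give no pairing and replicate numbers were given in accession order.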
